A study of Mus musculus with 12 samples.

Results

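The transcripts described here come from Odf1, Odf2 and Odf4, 3 genes named for outer dense fiber proteins. All carry counts in a table of long-read transcript counts from mouse spermatids. They were chosen by name: every reference transcript (contig) whose deposited symbol was one of these 3 was kept, which gave 10 contigs of the 12114 in the table and 3 genes of 7105 symbols. Odf1 had 1 contig, Odf2 had 7 and Odf4 had 2. The study sorted round spermatids (RS) and elongated spermatids (ES) from dissociated testes of adult mice by DNA content, red fluorescence and light scatter, and sequenced their poly(A) RNA directly on nanopores. The mice were either Tent5c wt/wt or Tent5c dcat/dcat, the second carrying on both alleles a TENT5C poly(A) polymerase without catalytic activity, in every cell that expresses the gene. Each of the 4 groups (wt/wt RS, dcat/dcat RS, wt/wt ES and dcat/dcat ES) had 3 libraries, and each library was made from the pooled RNA of 3 mice, so the spread given below is the spread between pools. Both stages were sorted from each mouse, so RS and ES pools of a genotype share animals.

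Outer dense fibers are stiff rods that run beside the microtubule doublets of the sperm tail, through its middle piece and most of its principal piece, and give the flagellum its elasticity. ODF1 is a cysteine-rich protein of the small heat shock family that sits in the fibers and in the neck, and mouse sperm that lack it lose their heads. ODF2 is a coiled-coil protein of the fibers, and its longer isoforms, known as cenexin, belong to the appendages of the mother centriole in many cell types. ODF4 is a testis protein named for the same structure. Transcription stops while spermatids elongate, so the transcripts that build the tail are made earlier and kept.

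Odf1 lies on the forward strand of chr15:38219203-38226735 (GRCm38). Its contig, ENSMUST00000081966, has 2 exons, 1105 nt and 248 codons. The 7 Odf2 contigs lie on the forward strand of chromosome 2 and share 13 whole exons. They differ first at the 5′ end, where they use different first exons, an optional exon of 237 nt (232 nt in 1 of them), an optional 154-nt exon and a longer or shorter form of the exon at chr2:29893444-29893569, the longer form adding 57 nt, or 19 codons in frame. They differ secondly at the 3′ end. Of the 7, 6 ended at the proximal site, whose last exon is chr2:29922213-29922539, and encoded 638 to 701 codons. The seventh, ENSMUST00000046571, left that exon after 159 bases, continued through 4 further exons and ended 9207 bases downstream, with 825 codons and 3959 nt. The sequences around the point of divergence are given because the results for Odf2 turn on it, with the first bases past the last shared base in capitals.
Odf2 proximal 3′ end, chr2:29922357-29922386: gacctgcgcagccggGTAAGGGACTGGCAG
Odf2 distal 3′ end, chr2:29922357-29922371 joined to chr2:29923539-29923553: gacctgcgcagccggATCGAACATCAGGGG

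In the proximal form the exon read on through GTAAGG, where the distal form was spliced. Each end had the polyadenylation hexamer AATAAA (in capitals) close to it, 22 bases before the end of ENSMUST00000028128 and 19 bases before that of the distal contig, counted from the first base of the hexamer.
Odf2 proximal hexamer, chr2:29922506-29922535: tcagtgctgtgaAATAAAagtctggtgtgc
Odf2 distal hexamer, chr2:29931716-29931745: ggttttacaggaAATAAAgtttgtatcact

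The letters AATAAA stood in the last 50 bases of 9 of the 10 member contigs, against 61.1% of the 11344 contigs of the table with a reference sequence. The exception was Odf1, which also lacked ATTAAA there, a hexamer found in 17.6% of those contigs. The proximal Odf2 contigs share the same hexamer in the genome, and the Odf4 contigs share another. The 9 matches are therefore not separate, and the comparison is of contigs, not of 3′ ends. A match is a description of the letters and says nothing of use.

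**Figure D1:**
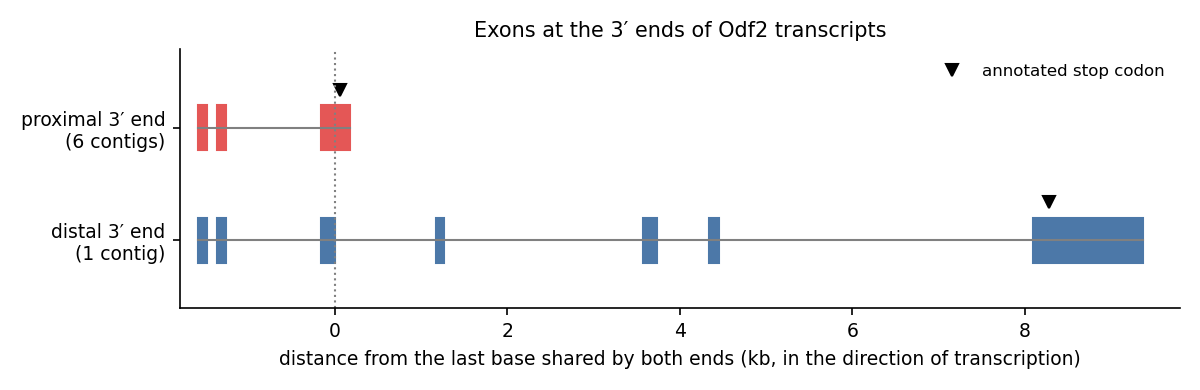
Exons at the 3′ ends of Odf2 transcripts, drawn to scale as distance in kb from the last base that both forms share. Boxes are exons, grey lines are introns, and triangles mark annotated stop codons. The proximal form ends within its split exon, 168 bases past the shared part, and the distal form has 4 more exons.

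The 2 Odf4 contigs lie on the reverse strand of chr11:68921835-68927081 and differ mainly in exon 3 of 5. ENSMUST00000038932 is annotated as protein coding with 290 codons. ENSMUST00000130271 has an exon 3 that is 22 nt longer and contains an early stop codon, encodes 178 codons and is annotated as a target of nonsense-mediated decay. The lines below show the end of exon 3 on the transcribed strand, with the bases past the shared edge in capitals, and then the extension alone with its stop codon in capitals.
Odf4 longer exon 3, chr11:68922819-68922848: ctgtgaagGTGCCCCCCAGCTCTGAAAAAG
Odf4 shorter exon 3, chr11:68922841-68922848 joined to chr11:68922533-68922554: ctgtgaagTCACCTTAATTTTCCTCACCCT
Odf4 early stop, chr11:68922819-68922840: gtgccccccagctcTGAaaaag

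Libraries held 337287 to 1359427 counted reads, so that a count of 0 would have allowed 1.77 to 10.6 CPM (counts scaled to a common library size, after TMM, the trimmed mean of M values). The members took 0.275% to 0.354% of reads in RS libraries and 0.625% to 0.757% in ES libraries. The scaling matters for the comparison of stages: with TMM the median contig changed by -0.24 (log2, ES against RS) in wt/wt and by -0.18 in dcat/dcat, and with total counts alone by -0.96 and -0.85. Of the 14 contigs of elongated spermatid markers tested, 12 were higher in ES than in RS (wt/wt), with a summed level of 19264 to 41534 CPM in RS and 211677 to 280448 in ES. The 13 round spermatid marker contigs tested were mixed, with 3 higher, 3 lower and 7 not called in wt/wt. Round spermatid markers summed to 1619 to 1973 CPM in wt/wt RS and to 2365 to 2951 in wt/wt ES, higher in ES. Markers of somatic cells moved with stage too. All 6 Leydig cell contigs tested were higher in ES (summed level 14.1 to 44.3 CPM in wt/wt RS, 394 to 765 in wt/wt ES). So were 8 of the 9 Sertoli cell contigs tested (38.1 to 54.9, and 229 to 365), beside 23.8% of all contigs in wt/wt. The contigs tested came from 5 of 10 Leydig and 7 of 12 Sertoli genes listed. A filter on low counts asked for 10 reads in 2 libraries of a group. Most of these contigs passed it through ES libraries only, so the number called higher was largely fixed by the filter. Meiotic markers summed to 1005 to 1094 CPM in wt/wt RS and 609 to 733 in wt/wt ES. Their 13 contigs tested were mixed, with 1 higher, 4 lower and 8 not called in wt/wt. None of the 4 erythroid or 4 macrophage genes had a contig in the table. The part of these cells in the results on Odf genes was not tested.

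Odf1 was higher in ES than in RS in both genotypes. In wt/wt RS it stood at 634, 848 and 857 CPM in replicates 1 to 3, and in wt/wt ES at 4083, 3558 and 2936 CPM. In dcat/dcat it stood at 680.1, 751 and 854 CPM in RS and at 4294, 3115 and 3402 CPM in ES. Every ES library lay above every RS library, and the lowest ES library, replicate 3 of wt/wt, was the shallowest of the 12. Mean levels were 779.5 ± 126 CPM (SD, n = 3) in wt/wt RS and 3525 ± 574 in wt/wt ES, a log2 change of 2.18 ± 0.18 (SE, edgeR quasi-likelihood test, q = 1.69e-06, Benjamini-Hochberg over 11831 contigs). In dcat/dcat the change was 2.24 ± 0.18 (q = 3.11e-06), from 762 ± 87.4 to 3604 ± 615 CPM. In sorted bulk samples of this kind, more cells that hold a transcript and more transcript per cell cannot be told apart.

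**Figure D2:**
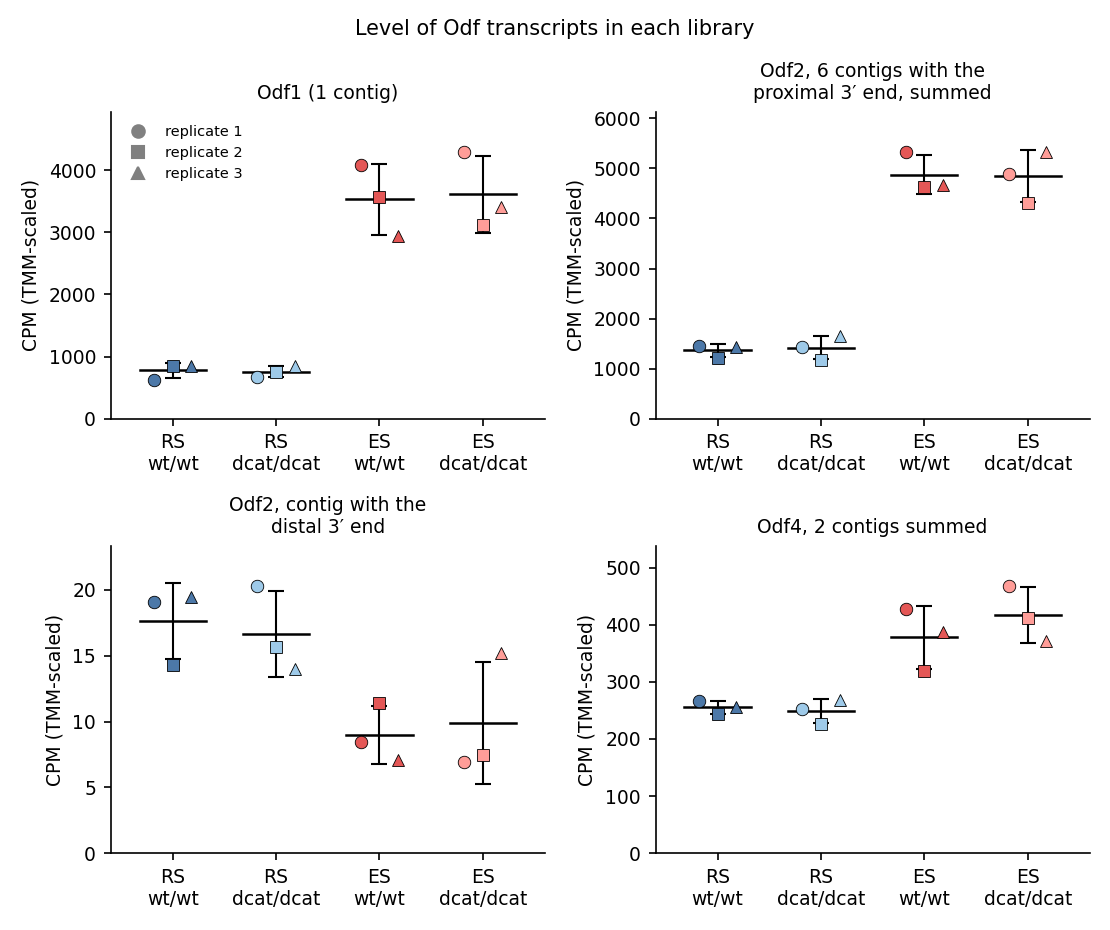
Level of Odf transcripts in CPM scaled by TMM in the 12 libraries, on axes that start at 0. Symbols mark replicates, horizontal lines group means and bars 1 SD (n = 3). Odf1, the summed proximal contigs of Odf2 and the summed contigs of Odf4 are higher in all 6 ES libraries than in any RS library (Odf4 with TMM scaling; with total counts its wt/wt change was -0.15), and the distal contig of Odf2 is lower in 5 of the 6 ES libraries than in any RS library.

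Over all 10 contigs, 8 passed the test in wt/wt, all of them higher in ES, and 9 passed in dcat/dcat, again all higher. The background was high: of 11831 contigs tested, 40.3% were called in wt/wt (23.8% higher, 16.6% lower) and 41.0% in dcat/dcat (24.0% higher, 17.0% lower). All 10 member contigs passed the filter on low counts, and the distal contig of Odf2 passed it through RS libraries only. In wt/wt the ES and RS libraries did not overlap for any of the 10 contigs, 9 higher and 1 lower, against 53.3% of contigs tested, and in dcat/dcat they did not overlap for 9 of 10, against 50.9%. At an unadjusted p under 0.05 stood all 10 contigs in wt/wt, against 49.1% of contigs tested, and 9 in dcat/dcat, against 49.8%. The contigs not called were ENSMUST00000130271 of Odf4 in wt/wt and the distal contig of Odf2 in both genotypes. Most of the 10 contigs are proximal contigs of Odf2, which differ mainly at the 5′ end. Their calls are not separate results, and these counts describe contigs, not genes.

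The 6 proximal contigs of Odf2, which encode the shorter ODF2 proteins, all rose with TMM scaling; with total counts ENSMUST00000113764 in wt/wt stood at 0.44 and was not called (q = 0.160). Summed, they stood at 1452, 1218 and 1443 CPM in wt/wt RS and at 5335, 4636 and 4663 CPM in wt/wt ES. In dcat/dcat the values were 1443, 1178 and 1654 CPM in RS and 4887, 4305 and 5335 CPM in ES. RS and ES libraries were far apart in both genotypes, and wt/wt and dcat/dcat libraries of 1 stage overlapped. The log2 change of the sum was 1.83 ± 0.15 in wt/wt (edgeR, q = 1.69e-06) and 1.76 ± 0.15 in dcat/dcat (q = 3.03e-06). This sum was formed after the contigs had been looked at singly. Singly, the log2 changes ran from 1.16 ± 0.28 for ENSMUST00000113764 (q = 0.00478) to 2.08 ± 0.16 for ENSMUST00000113762 (q = 1.58e-06) in wt/wt, and from 1.34 ± 0.28 for ENSMUST00000113764 to 1.99 ± 0.29 for ENSMUST00000113755 in dcat/dcat. ENSMUST00000113764, whose first exon starts furthest downstream, had the smallest change of the 6 in both genotypes. Its share of Odf2 reads was 6.42% ± 1.68 in wt/wt RS and 4.04% ± 1.09 in wt/wt ES, a difference that did not pass the test of shares described next (log2 share change -0.66, q = 0.707).

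The distal contig of Odf2 went the other way. It held 23, 12 and 33 reads in wt/wt RS and 4, 6 and 2 in wt/wt ES, and 19, 12 and 17 reads in dcat/dcat RS and 3, 3 and 9 in dcat/dcat ES. These are low counts at every stage. In CPM the means were 17.6 ± 2.89 in wt/wt RS and 8.96 ± 2.22 in wt/wt ES, and 16.7 ± 3.25 and 9.86 ± 4.60 in dcat/dcat, where replicate 3 of ES, at 15.2 CPM, lay within the range of RS. The log2 changes of -0.94 ± 0.41 in wt/wt (edgeR, q = 0.0788) and -0.68 ± 0.40 in dcat/dcat (q = 0.194) did not pass the threshold. With total counts in place of TMM they did, at -1.65 (q = 0.00346) and -1.33 (q = 0.0110).

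Its share of Odf2 reads, which does not depend on library scaling, separated the stages. The distal contig took 1.30%, 1.16% and 1.33% of Odf2 reads in wt/wt RS and 0.158%, 0.245% and 0.151% in wt/wt ES. In dcat/dcat it took 1.39%, 1.31% and 0.838% in RS and 0.142%, 0.174% and 0.284% in ES. All 6 RS libraries lay above all 6 ES libraries. With the reads of a group pooled, the share was 68 of 5287 reads in wt/wt RS (1.29%, exact Clopper-Pearson 95% interval 1.0 to 1.63) and 12 of 6306 in wt/wt ES (0.190%, 0.0984 to 0.332). In dcat/dcat it was 48 of 4312 (1.11%, 0.822 to 1.47) and 15 of 7011 (0.214%, 0.120 to 0.353). The intervals cover counting error only. In a test of each contig against the other contigs of its gene (diffSpliceDGE of edgeR, adjusted over 6856 contigs of 2637 genes), the log2 share change was -2.75 in wt/wt (q = 0.000298) and -2.42 in dcat/dcat (q = 0.00153). Of all contigs so tested, 1.21% were called in wt/wt and 1.06% in dcat/dcat. The distal contig had entered this test through its RS libraries. With a filter blind to stage, a mean of at least 10 reads over all 12 libraries, the changes were -2.75 (q = 0.000214) and -2.42 (q = 0.00204), a setting chosen after the values were seen. A two-sided exact permutation test exchanged stage labels within genotype and applied no further filter. In it the mean share fell by 1.03 percentage points (unadjusted p = 0.005, the smallest that 400 arrangements allow, 1 of 9 contigs so tested). The study's methods kept transcripts with at least 10 reads in at least 2 replicates of a condition. The distal contig meets that rule through RS libraries only. The counted table may have passed it already, so all these tests may share that selection. With labels swapped only within the 6 same-numbered pairs of RS and ES libraries, the share was lower in ES in 6 of 6 pairs (unadjusted exact p = 0.0312, the smallest that 64 arrangements allow, again 1 of 9 contigs so tested). In wt/wt the same-numbered libraries did not all deviate together, so the pairing there is less sure. In dcat/dcat replicates 2 and 3 also deviated together across numbers, so their pairing is less sure too. Without replicate 1 of every group, the log2 share changes were -2.62 (edgeR, q = 0.00198) and -2.04 (q = 0.0177).

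**Figure D3:**
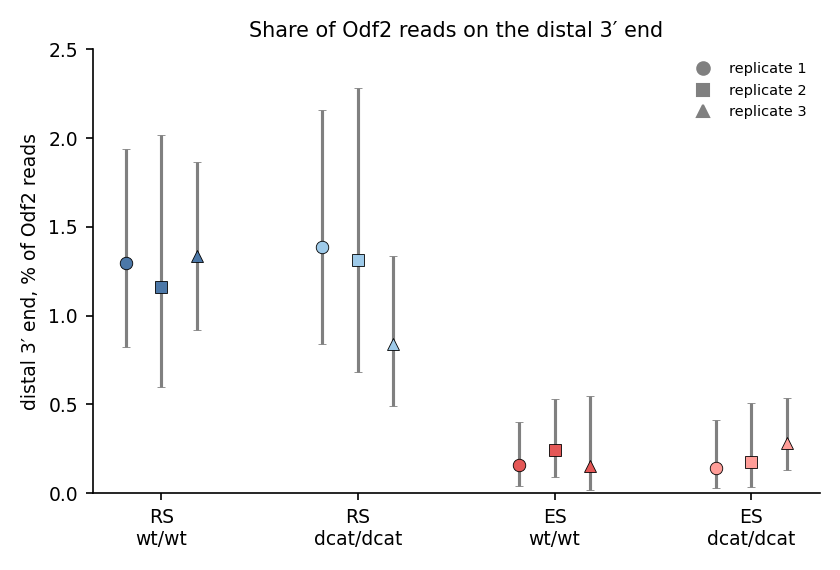
Reads on the distal 3′ end as a percent of all Odf2 reads in each library, with exact 95% binomial intervals that cover counting error only. Symbols mark replicates. The 6 RS libraries lie between 0.838% and 1.39% and the 6 ES libraries between 0.142% and 0.284%.

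Among the proximal contigs, the shares in replicate 1 stood apart from the others. ENSMUST00000028128 took 32.9% and 30.6% of Odf2 reads in replicate 1 of wt/wt RS and of dcat/dcat RS, and 17.7% to 21.6% in the other 10 libraries. ENSMUST00000113755, the proximal contig with the 154-nt exon, took 8.73% to 13.1% in replicate 1 of all 4 groups and 15.5% to 20.03% in all other libraries. Contigs with the longer form of the alternative exon took 45.6% and 48.0% of Odf2 reads in the 2 RS libraries of replicate 1 and 54.7% to 58.9% elsewhere. These contigs differ only at the 5′ end (and ENSMUST00000113764 by 3 bases at its 3′ end), while direct RNA reads begin at the poly(A) tail, so a read that stops short of the 5′ exons does not separate them. The part of read length in these shares was not tested. None of the 6 differed in share between stages by diffSpliceDGE in either genotype (lowest q = 0.707). In the exact permutation test over both genotypes, the share of ENSMUST00000113762 was 2.0 percentage points higher in ES (unadjusted p = 0.035) and that of ENSMUST00000113764 fell by 1.90 (p = 0.05), with the other 4 at p = 0.285 to 0.755.

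**Figure D4:**
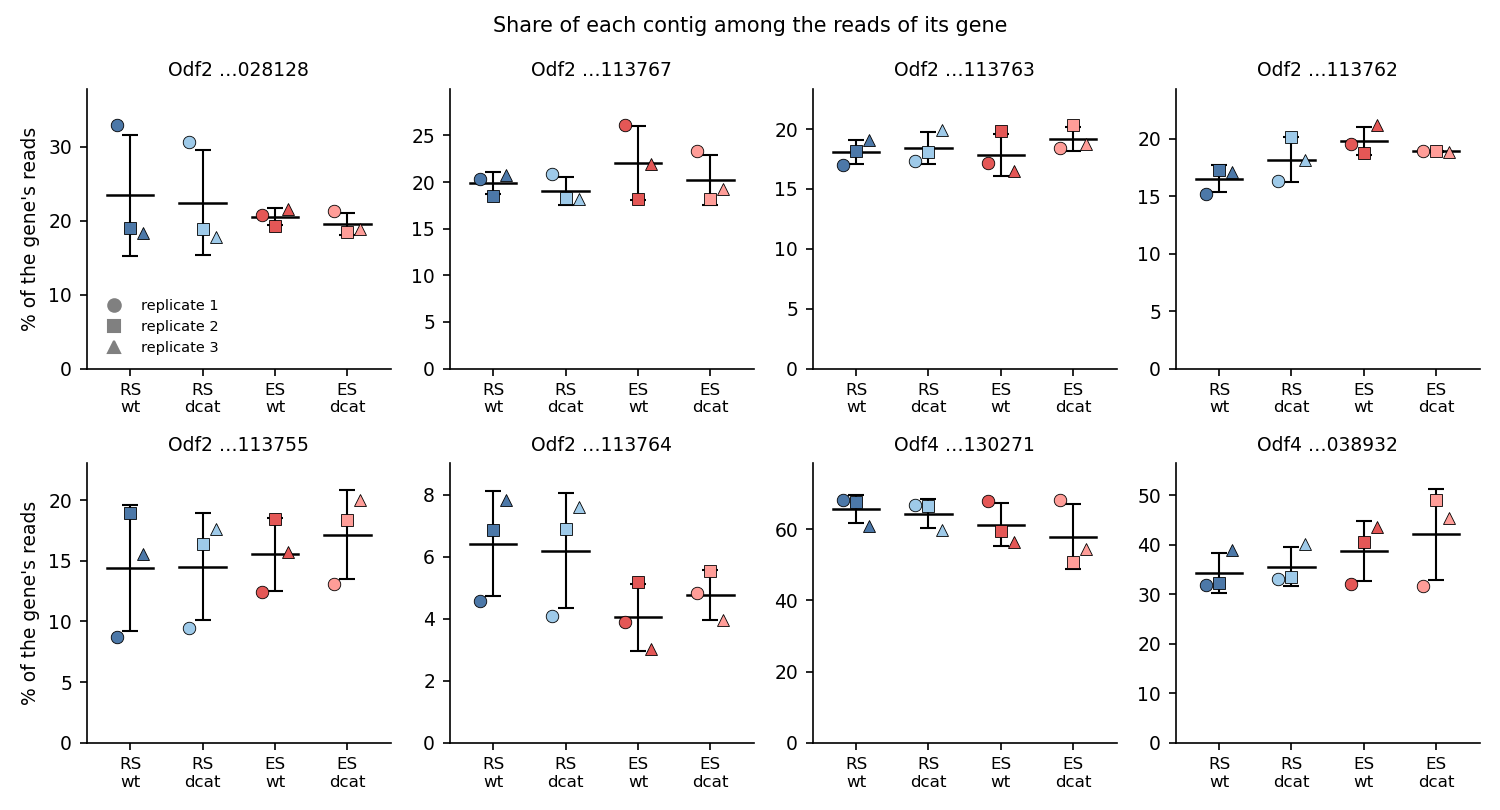
Percent of the reads of its gene held by each proximal contig of Odf2 and by both contigs of Odf4, by group. Symbols mark replicates, lines means and bars 1 SD (n = 3). In replicate 1 of RS, ENSMUST00000028128 stands at 30.6% and 32.9%, above all other libraries.

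Odf4 rose less than Odf1 or Odf2 did with TMM scaling, and was not called with total counts alone. Its contigs summed to 266, 244 and 256 CPM in wt/wt RS and to 428, 319 and 388 CPM in wt/wt ES. In dcat/dcat they summed to 252, 226 and 268 CPM in RS and to 468, 412 and 371 CPM in ES. Stages did not overlap in either genotype, and the log2 changes of the sum were 0.56 ± 0.16 in wt/wt (edgeR, q = 0.0130) and 0.74 ± 0.16 in dcat/dcat (q = 0.00223). The protein-coding contig, ENSMUST00000038932, had log2 changes of 0.71 ± 0.21 (wt/wt, q = 0.0151) and 0.95 ± 0.21 (dcat/dcat, q = 0.00232), called in both with TMM and in neither with total counts (0.0036, q = 0.990, and 0.28, q = 0.278). The contig with the early stop, ENSMUST00000130271, was called in dcat/dcat, with a log2 change of 0.60 ± 0.21 (q = 0.0346), against 0.47 ± 0.21 in wt/wt (q = 0.0886; 0.46 and q = 0.0245 with the replicate block). The difference of these changes was not called. With total counts the direction of Odf4 was not held: ENSMUST00000130271 stood at -0.24 in wt/wt and -0.08 in dcat/dcat and the sum at -0.15 in wt/wt and 0.063 in dcat/dcat, none of them called, where the median contig stood at -0.96 and -0.85. Without replicate 2 of wt/wt RS the call of ENSMUST00000038932 in wt/wt was lost (q = 0.0575). The call of ENSMUST00000130271 in dcat/dcat was lost without any 1 of the 3 dcat/dcat RS libraries and without replicate 1 of dcat/dcat ES, where its log2 change lay between 0.37 and 0.64, and its value in wt/wt was called without replicate 1 of dcat/dcat ES (q = 0.0460).

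Most Odf4 reads were counted on the contig with the early stop. The 2 contigs share the exons downstream of exon 3, apart from where the last one ends. A direct RNA read that stops short of exon 3 therefore does not separate them, and the part of read length in these shares was not tested. The contig with the early stop took 65.7% ± 4.02 of Odf4 reads in wt/wt RS, 64.4% ± 3.99 in dcat/dcat RS, 61.3% ± 6.01 in wt/wt ES and 57.9% ± 9.18 in dcat/dcat ES (SD, n = 3). The ranges of the stages overlapped, at 59.8% to 68.2% over RS libraries and 50.9% to 68.3% over ES libraries. The difference of 5.45 percentage points between stages, lower in ES, did not pass the exact permutation test (p = 0.145, two-sided). The 4 ES libraries outside replicate 1 lay between 50.9% and 59.5%, and both of replicate 1 at 68.0% and 68.3%.

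Between genotypes no Odf contig passed the test. In RS the log2 differences of the 10 contigs (dcat/dcat against wt/wt) ran from -0.10 to 0.19 with SE of 0.16 to 0.32, and in ES from -0.14 to 0.26 with SE of 0.15 to 0.48. The lowest unadjusted p was 0.250 in RS and 0.240 in ES (edgeR), and for none of the 10 contigs did the genotypes separate without overlap, in either stage, where 5.32% and 7.66% of all contigs did. Over all 11831 contigs, edgeR called 0 (0%) in either stage, with 98 at an unadjusted p under 0.05 in RS (0.828%) and 359 in ES (3.03%), and DESeq2 called 0 and 1. For Odf1 in ES, the difference was 0.03 ± 0.17 on the log2 scale, from 3525 CPM in wt/wt to 3604 CPM in dcat/dcat.

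With all contigs of a gene summed, the genotype difference was -0.02 ± 0.18 for Odf1, 0.07 ± 0.16 for Odf2 and -0.02 ± 0.15 for Odf4 in RS, and 0.04 ± 0.18, 0.00 ± 0.16 and 0.15 ± 0.16 in ES. No gene of the 3 was called between genotypes, where 0% of genes were called in RS and 0.0131% in ES. By stage, all 3 genes were called in both genotypes, where 49.3% of genes were called in wt/wt and 49.5% in dcat/dcat. The interaction of stage and genotype called 0 of 11831 contigs (0%; 170, or 1.44%, at an unadjusted p under 0.05, and 0 by DESeq2), and the lowest unadjusted p among Odf contigs was 0.249. Shares of Odf2 and Odf4 contigs did not pass the exact permutation test between genotypes for any of the 9 contigs (lowest p = 0.280).

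**Figure D5:**
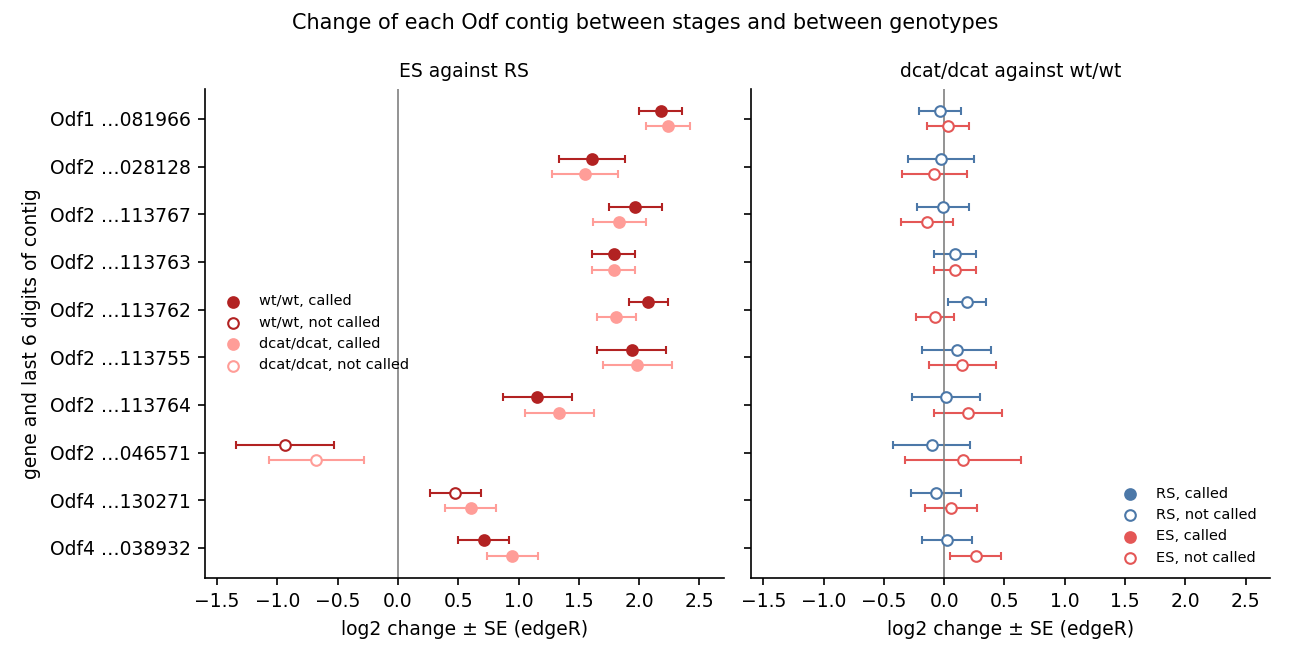
Log2 change of each Odf contig with its SE, between stages (left, by genotype) and between genotypes (right, by stage), from edgeR over all 12 libraries. Filled symbols passed q at or under 0.05 and open symbols did not. In the stage panel 9 contigs lie right of 0 and the distal contig of Odf2 lies left of it. All genotype differences are open and lie between -0.14 and 0.26. With total counts in place of TMM, ENSMUST00000130271 of Odf4 lay left of 0 (-0.24 and -0.08).

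Genes whose products bind or resemble ODF1 and ODF2 included some called higher and some called lower in ES. Of 19 such genes listed, 14 had 30 contigs in the table, of which 12 were higher in ES, 7 lower and 11 not called in wt/wt, with a median log2 change of -0.11, and 12, 5 and 13 in dcat/dcat. Over all contigs 23.8% were called higher and 16.6% lower in wt/wt, with a median of -0.24, and 24.0% and 17.0% in dcat/dcat. Spag4, a nuclear envelope protein that binds ODF1, rose by 1.77 to 2.40 on the log2 scale over its 3 contigs (wt/wt). Klc3, a kinesin light chain that binds ODF1, rose by 3.58 and 2.29 in its 2 contigs, and 3 contigs of Wdr64 by 2.87 to 3.02. The Klc3 contig at 3.58 held 3, 2 and 3 reads in wt/wt RS and passed the filter on low counts through ES libraries only. So did the Wdr64 contigs at 2.87 and 3.02. For these contigs a rise was favored by the filter, and its size rests on few reads in RS. In the other direction, Spag5, a spindle protein that binds ODF1, changed by -0.82 ± 0.24 (q = 0.0130), and Ccdc42, a neck and manchette protein that binds both, by -1.22 ± 0.26 (q = 0.00158). Odf2l, the paralog of Odf2, fell in wt/wt in both contigs (-1.05 and -1.54, q = 0.0478 and 0.00959) and passed in neither in dcat/dcat (0.23 and -1.06, q = 0.707 and 0.0569), and the interaction of stage and genotype was called for neither (edgeR, unadjusted p = 0.0471 and 0.498). Both Odf2l contigs passed the filter on low counts through RS libraries only. For them a fall in ES was favored by the filter. Its size rests on few reads in ES, 1 to 6 a library in wt/wt. Tssk4, a kinase that acts on ODF2, had 3 contigs between -0.55 and -0.16, none called.

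Of 14 listed genes of the head-tail coupling apparatus, which joins the nucleus to the tail, 12 had 31 contigs. In wt/wt 19 were higher in ES, 1 lower and 11 not called (median log2 change 1.76), and in dcat/dcat 21, 1 and 9. Over all contigs 23.8% were higher and 16.6% lower in wt/wt (median -0.24), and 24.0% and 17.0% in dcat/dcat (median -0.18). Some of these genes gave several of the 31 contigs, each counted singly. Some contigs called higher passed the filter on low counts through ES libraries only. The counts describe contigs, not genes, and carry no test. Tent5c itself rose from RS to ES by 1.47 ± 0.19 in wt/wt (q = 2.63e-05) and by 1.53 ± 0.19 in dcat/dcat. Its level was not called between genotypes (0.15 ± 0.18 in RS, 0.20 ± 0.18 in ES). The inactive allele is still transcribed, so this level does not check the labels.

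The contigs whose levels ran most like those of Odf1 over the 12 libraries, by Pearson correlation of log2 CPM among 2186 candidates of other genes, were those of Tssk2 (0.997), Mea1, 2610318N02Rik, Cimip2a and Znrf4 (0.997 each). For ENSMUST00000028128 of Odf2 they included Kif2b (0.991), Akap3, Trim36 and Ankrd53 (0.977 to 0.973). For ENSMUST00000130271 of Odf4 they were Cimap1a (0.976), Desi1, Ubxn6, Vwa3b and Map1lc3a (0.970 to 0.952). ENSMUST00000028128 is the contig whose share stood apart in replicate 1 of RS, so its profile may not be that of Odf2 as a whole. Kif2b changed by 0.74 between stages in wt/wt (log2), against 1.61 for ENSMUST00000028128. The points are libraries of 2 stages, which share the difference between stages, so the values describe the likeness of profiles and carry no test.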

How the data were processed

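Direct RNA reads (Oxford Nanopore kit for direct RNA, R9 flow cells) had been aligned by the authors with minimap2 to GENCODE transcripts on mm10 (GRCm38), restricted to reads whose poly(A) tail call passed quality control, and counted per transcript; the deposited table holds raw whole-number counts of reads for 12114 contigs in 12 libraries. The accompanying deposited tables of DESeq2 results gave gene symbols only (11225 contigs), and their fold changes and p-values were not used. Exons, biotypes and sequences came from GENCODE vM21 on GRCm38, the same build. Counts were analysed in edgeR 4.0.16 (R 4.3.3): contigs that reached 10 reads in 2 or more libraries of a group were kept (11831), TMM scaled, and fitted with 1 mean per group and quasi-likelihood F tests, calls at q at or under 0.05. Standard errors are the log2 change over the square root of F. Alternatives were DESeq2 1.42.0, total counts or other scaling, other filters, the replicate block and leaving out libraries. Shares were tested with diffSpliceDGE and exact permutations. Scripts were tested on simulated data. Named genes were all member contigs, 8 genes of fixed lists, and the 5 nearest profiles per gene, of which 1 is not reported here. Members, lists and tests were chosen with earlier results of these data known. The labels name pools, not mice, so p-values measure the spread between pools. No 2 libraries were identical. Same-numbered libraries deviated together between genotypes in RS (correlations over contigs 0.696, 0.385 and 0.467) and between stages in dcat/dcat (0.519, 0.252 and 0.291). The numbers were taken to pair those comparisons. Replicates 2 and 3 also deviated together across numbers, less strongly, at 0.271 and 0.231 between genotypes in RS. Between stages in dcat/dcat they did so at 0.193 and 0.193. The pairing of replicates 2 and 3 is therefore less sure. The methods state that stages came from the same mice, not which pools share them. Poly(A) tail lengths were not analysed here.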

Additional observations from a re-analysis of the deposited data

How the results depend on the processing

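Of 312 counts of called contigs, genes or shares recomputed under the alternatives, 309 stayed within 1.5 times their first value. Many of them were 0 under every setting, such as all counts between genotypes, so this number says little of stability. It also takes in a fall from 3 called genes to 2 between stages, where Odf4 was lost with total counts. With total counts in place of TMM, contigs called lower in ES went from 0 to 1 in wt/wt and in dcat/dcat, the distal contig of Odf2 in both. Leaving out 1 library, or replicate 1 of all groups (chosen after seeing the data), gave 7 to 9 called contigs between stages in wt/wt and 8 to 9 in dcat/dcat, and, with 1 library left out, 1 to 2 Odf2 contigs past the exact test of shares between stages after adjustment over 9 contigs (2 without replicate 2 of dcat/dcat RS). Without replicate 1 of all groups that test had 36 arrangements, whose smallest p is 0.0556, so it could not pass and is not counted. With total counts no Odf4 value was called and some turned sign: -0.24 and -0.077 for ENSMUST00000130271 in wt/wt and dcat/dcat, and -0.15 (contig fit) or -0.155 (gene fit) for the sum of its contigs in wt/wt, but 0.063 for that sum in dcat/dcat and 0.0036 and 0.28 for ENSMUST00000038932. The cause was not tested. Genotype differences near 0 changed sign without being called. For Odf2 in ES they were -0.018 with DESeq2 and -0.0070 with the replicate block. With 1 library left out they ran in RS from -0.195 to 0.0886 for Odf1, -0.0724 to 0.174 for Odf2 and -0.102 to 0.0246 for Odf4, and in ES from -0.126 to 0.130 for Odf1 and -0.0898 to 0.0788 for Odf2.

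With the replicate number as a block (replicate block), the paired comparisons changed no call of an Odf contig: 9 contigs were called between stages in dcat/dcat and 0 between genotypes in RS. In wt/wt, where same-numbered libraries did not all deviate together (0.403, 0.363 and -0.095), the block called 9 contigs, adding ENSMUST00000130271 (0.46, q = 0.0245). In ES the same-numbered libraries of the 2 genotypes did not all deviate together either (0.454, 0.306 and 0.034). The numbers were not taken to pair them, and the block called 0. The distal share of Odf2 had 2 to 33 reads a library behind it, so changes in its level under a few-fold were at the limit of this depth. The requirement of 10 reads in every library left the distal contig out, and Odf4 calls were lost (ENSMUST00000038932 in wt/wt, 0.39, q = 0.103; ENSMUST00000130271 in dcat/dcat, 0.32, q = 0.149; the sum in wt/wt, 0.28, q = 0.0870). All Odf2 contigs are annotated as protein coding, so restricting the denominator changed nothing.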
